A study of Mus musculus with 6 samples.

Results

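B cells recognise antigen through the B cell receptor, and the 9 genes described here encode parts of that receptor, regulators of its signal and transcription factors of the B lineage: Cd79a, Cd79b, Cd22, Ms4a1, Pax5, Ebf1, Bank1, Mef2c and Dok3. They were chosen by name out of 55573 genes listed, with their levels in the comparison of genotypes already known, so their levels are a description, and the calls counted for them below are no independent support. All 9 were present in the count tables, and all 9 passed the filter on low counts. In every Nfkb2-/- library each of the 9 stood above the filter's cutoff of 0.791 CPM, so none passed through the wild-type libraries alone.

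The libraries did not come from B cells. They were made from regulatory T cells (Tregs), a class of CD4 T cells that holds immune responses in check. These were sorted from spleens of bi-parental chimeras, mice given donor bone marrow to replace their own blood-forming cells. The 3 Nfkb2-/- libraries and 3 wild-type libraries are called biological repeats in the labels, and all cells were rested in medium for 2 h before lysis. Nfkb2 encodes p100, an NF-kB protein that is cut to p52. Marrow donors, hosts and their sex and age, and whether both genotypes came from one animal, are not given in the sources used here. The labels put the purity of the sort above 90%, without naming the gate or the remaining cells.

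Total counts ran from 12005273 to 17278521 per library. Levels are given as CPM, read counts over the TMM-scaled library size, or as RPKM, CPM per 1000 bases of exon, where genes are compared with each other. Nfkb2, the targeted gene, stood at 268, 324 and 271 CPM in Nfkb2-/- replicates 1 to 3 and at 558, 545 and 556 CPM in the corresponding wild-type libraries. The Treg factor Foxp3 was found in every library at 407 to 622 CPM, Cd4 at 383 to 659 CPM and the T cell receptor chain gene Cd3e at 174 to 262 CPM. Wild-type replicate 1 was the lowest wild-type library in all 9 members, as in 42.1% of the genes tested, and results are therefore also given without it. The female transcript Xist was at 592 to 883 CPM in Nfkb2-/- and 1.94 to 16.5 CPM in wild type, so donor sex and genotype cannot be told apart. The Y-linked gene Ddx3y was nonetheless read in each Nfkb2-/- library, at 20.8, 81.9 and 151 CPM in replicates 1 to 3 against 214 to 287 CPM in wild type. Xist and Ddx3y were thus both present there, and Nfkb2 remained at 288 CPM on average against 553 CPM. Whether RNA of wild-type cells was in the Nfkb2-/- libraries was not tested, and every level and fold change below is that of the libraries so labelled.

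In B cells, CD79A and CD79B form the signalling pair that carries the antigen signal of surface immunoglobulin into the cell. CD22 is an inhibitory co-receptor that dampens this signal, while BANK1 and DOK3 are adaptor proteins acting downstream of it. EBF1 and PAX5 are the transcription factors that set up and keep B cell identity, and Cd79a is a textbook target of both.

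Promoter sequences were available for 7 of the 9 members in the RefSeq table (GRCm38.p6), with 10 start sites among them. The 4 shown are those of Cd79a, the member with the largest difference, Cd22, the member that stood apart, and Bank1 and Dok3, which bracket the count of motif matches. Each is the longest stretch of the 250 bases before the RefSeq start that lies outside annotated exons, written 5′ to 3′ along the gene, with motif matches in capitals.
Cd79a, chr7:24897247-24897380, plus strand: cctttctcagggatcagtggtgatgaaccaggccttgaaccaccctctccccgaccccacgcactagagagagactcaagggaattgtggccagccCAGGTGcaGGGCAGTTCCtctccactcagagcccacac
Cd22, chr7:30879029-30879176, minus strand: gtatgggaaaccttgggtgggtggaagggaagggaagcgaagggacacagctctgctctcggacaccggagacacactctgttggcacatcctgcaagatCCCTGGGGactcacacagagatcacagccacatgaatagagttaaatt
Bank1, chr3:136326067-136326316, minus strand: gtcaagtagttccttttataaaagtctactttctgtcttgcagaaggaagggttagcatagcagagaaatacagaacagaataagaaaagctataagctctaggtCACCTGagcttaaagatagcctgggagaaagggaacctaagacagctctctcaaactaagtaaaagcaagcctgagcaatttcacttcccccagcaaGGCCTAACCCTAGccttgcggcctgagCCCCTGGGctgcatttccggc
Dok3, chr13:55528555-55528788, minus strand: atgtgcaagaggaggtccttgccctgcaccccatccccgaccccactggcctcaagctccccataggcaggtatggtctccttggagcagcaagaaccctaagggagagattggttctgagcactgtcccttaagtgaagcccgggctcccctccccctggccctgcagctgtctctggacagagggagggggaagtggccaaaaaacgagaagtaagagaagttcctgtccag

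The motifs of EBF, E-box, NF-kB, octamer, PU.1 and MEF2 factors were searched on both strands of the 250 bases before each start, and matches of different motifs were allowed to overlap. The pattern CCCNNGGG, the paired half-sites of EBF factors, was found in Bank1 as CCCCTGGG and in Cd22 as CCCTGGGG. It was found at 2 of 10 member start sites and in 11.8% of all 32851 promoters. Cd79a had no match, but only this exact pattern was searched, so EBF sites that depart from it were not seen. A PAX5 motif was not searched. The E-box CAGGTG was found at 3 of 10 start sites, those of Cd79a, Cd22 and Bank1, and in 17.2% of all promoters; the Cd22 match lies outside the stretch shown. The NF-kB pattern, GGG and CC with 5 bases between, was found at 5 of 10 start sites, in Cd79a as GGGCAGTTCC, and in 45.8% of all promoters. The pattern searched for MEF2, CTA and TAG with any 4 bases between, matched in Bank1 alone, as CTAACCCTAG, overlapping an NF-kB match. It matched in 3.2% of all promoters. The 4 middle bases were left free, so a match to this loose pattern need not be a MEF2 site. No member start site held the octamer ATGCAAAT or the PU.1 pattern GAGGAAGT, which 1.6% and 2.44% of all promoters held. Dok3 held none of these letters in its window.

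Per length, the receptor pair had the highest levels of the 9. Cd79a (ENSMUSG00000003379, chromosome 7, 24897381 to 24902197, GRCm38) was at 3.48, 4.93 and 7.57 CPM in Nfkb2-/- replicates 1 to 3 and at 20.1, 48.5 and 35.6 CPM in wild-type replicates 1 to 3. The genotypes did not overlap, and wild-type replicate 1 was the lowest of its group. These levels rest on 42, 70 and 93 reads in Nfkb2-/- and on 373, 613 and 424 in wild type. The means were 5.33 ± 2.08 and 34.7 ± 14.2 CPM (SD, n = 3 each), a 6.52-fold difference, with a log2 fold change of -2.70 (SE 0.392).

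Cd79b (ENSMUSG00000040592, chromosome 11, 106311341 to 106314762) was at 6.95, 9.08 and 11.4 CPM in Nfkb2-/- and 12.0, 38.1 and 25.9 CPM in wild type. The groups barely separated, since wild-type replicate 1 lay just above Nfkb2-/- replicate 3. The means were 9.14 ± 2.23 and 25.3 ± 13.1 CPM (SD, n = 3 each), with a log2 fold change of -1.46 (SE 0.404). Although both proteins work as a pair, their RNAs did not keep one ratio. Per length, Cd79a stood at 0.491, 0.533 and 0.652 times the level of Cd79b in the Nfkb2-/- libraries, and at 1.65, 1.25 and 1.35 times in wild type. The order of the pair was thus turned in all 3 libraries of one genotype against all 3 of the other.

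Ms4a1 (ENSMUSG00000024673, chromosome 19), which encodes the surface protein CD20, was at 1.49, 2.46 and 4.32 CPM in Nfkb2-/- and 7.28, 22.0 and 17.6 CPM in wild type, without overlap. Its log2 fold change was -2.49 (SE 0.502). Unlike Cd79b, Ms4a1 held a similar per-length ratio to Cd79a in both genotypes, 0.101, 0.118 and 0.134 in Nfkb2-/- and 0.0852, 0.107 and 0.116 in wild type.

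Cd22 (ENSMUSG00000030577, chromosome 7, 30865402 to 30880342) was the exception among the 9. It was at 8.77, 11.6 and 12.8 CPM in Nfkb2-/- and at 3.88, 27.4 and 23.5 CPM in wild type. The lowest of all 6 libraries was wild-type replicate 1, so the genotypes overlapped. The means were 11.1 ± 2.06 and 18.3 ± 12.6 CPM (SD, n = 3 each), with a log2 fold change of -0.71 (SE 0.594). Without wild-type replicate 1 it was -1.20 (SE 0.172), without replicate 2 -0.31 (SE 0.645) and without replicate 3 -0.49 (SE 0.684). Of all counts on the 9 genes, Cd22 took 29.7% (exact 95% interval 25.0 to 34.7), 28.2% (24.6 to 32.0) and 25.0% (21.7 to 28.6) in the Nfkb2-/- libraries. In wild type it took 5.33% (4.19 to 6.66), 11.9% (10.7 to 13.1) and 14.3% (12.8 to 16.0). These intervals cover counting error only, not the spread between libraries. The share of Cd22 also rises wherever the other members are lower, and these were chosen on this contrast. It is therefore no separate result about the level of Cd22.

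**Figure D1:**
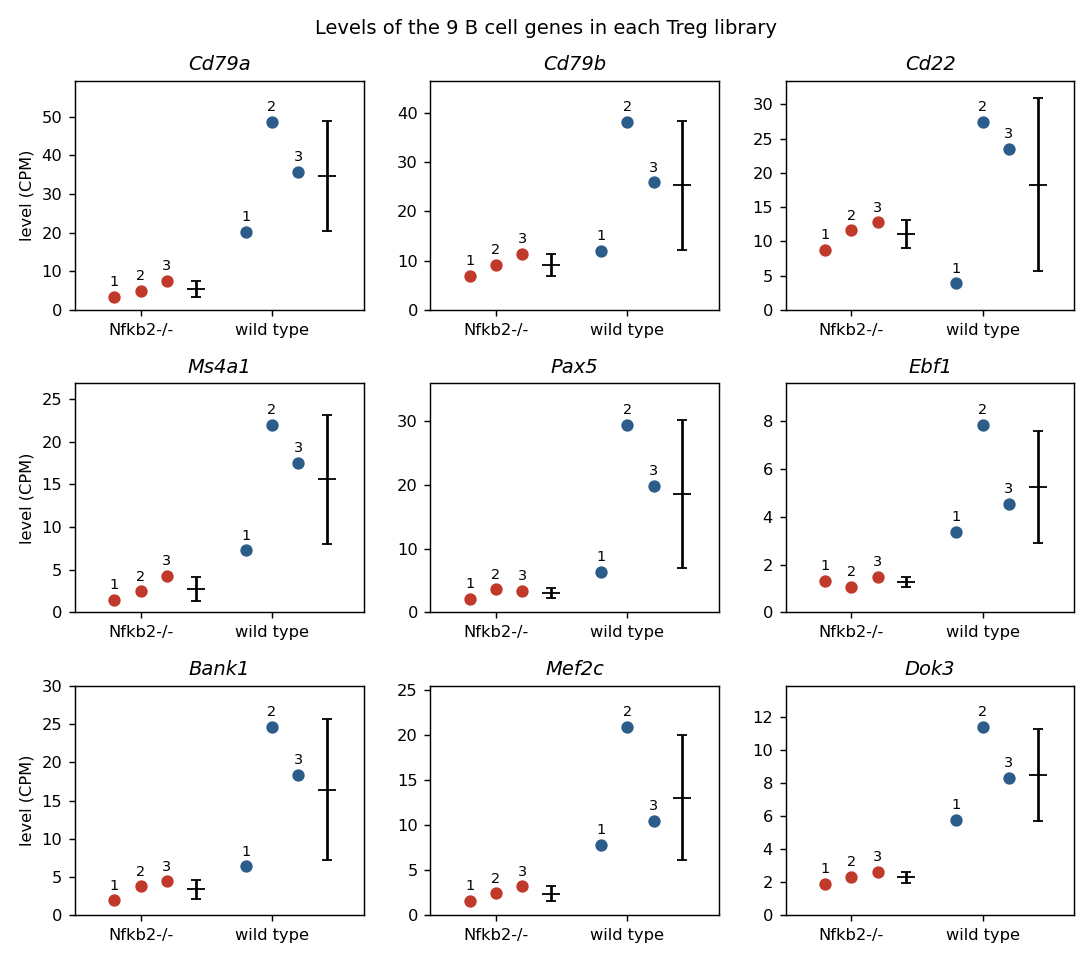
Level of each of the 9 genes in CPM (vertical axes, linear, each from 0) in the 3 Nfkb2-/- libraries (red) and the 3 wild-type libraries (blue), numbered by replicate, with the mean and SD in black. Cd22 alone overlaps between the genotypes, with wild-type replicate 1 at 3.88 CPM below every Nfkb2-/- library.

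The transcription factor genes were lower in Nfkb2-/-. Pax5 (ENSMUSG00000014030, chromosome 4), which commits cells to the B lineage, was at 2.15, 3.59 and 3.42 CPM in Nfkb2-/- and 6.31, 29.4 and 19.7 CPM in wild type. The groups did not overlap, and the log2 fold change was -2.58 (SE 0.538). Ebf1 (ENSMUSG00000057098, chromosome 11), which acts before Pax5 in B cell development, was at 1.32, 1.06 and 1.47 CPM in Nfkb2-/- and 3.34, 7.83 and 4.54 CPM in wild type. Its counts were 16, 15 and 18 in Nfkb2-/- and 62, 99 and 54 in wild type, the smallest among the 9 in every library. The log2 fold change was -2.02 (SE 0.396).

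Mef2c (ENSMUSG00000005583, chromosome 13), a MADS-box factor that B cells share with myeloid cells and muscle, was at 1.57, 2.39 and 3.18 CPM in Nfkb2-/- and 7.82, 20.9 and 10.5 CPM in wild type. All 3 wild-type libraries stood above all Nfkb2-/- libraries, with a log2 fold change of -2.45 (SE 0.436).

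Among the adaptors, Bank1 (ENSMUSG00000037922, chromosome 3, 136053363 to 136326066) was at 1.90, 3.73 and 4.40 CPM in Nfkb2-/- and 6.36, 24.6 and 18.3 CPM in wild type. The log2 fold change was -2.28 (SE 0.520). Dok3 (ENSMUSG00000035711, chromosome 13, 55523231 to 55529296) was at 1.90, 2.32 and 2.61 CPM in Nfkb2-/- and 5.77, 11.4 and 8.32 CPM in wild type, without overlap in either gene. Its log2 fold change was -1.89 (SE 0.318). Other DOK adaptor genes, which T cells express, differed little, with log2 fold changes of -0.32 (SE 0.146) for Dok2 and -0.11 (SE 0.146) for Dok1; 0 of 3 tested were called by edgeR, DESeq2 or limma-voom, or at an unadjusted p under 0.05. Other annotated genes overlap the spans of Cd22, Ms4a1, Pax5, Ebf1 and Bank1, and the libraries were unstranded. Whether their exons overlap, so that reads could be mixed up, was not tested.

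Per length, the order of the members differed between the genotypes. In wild type Cd79a led at a mean of 23.9 RPKM, followed by Cd79b at 17.7, Cd22 at 3.62 and Dok3 at 3.45 RPKM. Ms4a1, Bank1 and Pax5 were at 2.52, 2.19 and 2.09 RPKM, and Mef2c and Ebf1 at 0.832 and 0.537 RPKM. In Nfkb2-/- Cd79b led at 6.39 RPKM, followed by Cd79a at 3.66 and Cd22 at 2.19 RPKM. The remaining members lay between 0.131 RPKM for Ebf1 and 0.926 RPKM for Dok3. Neighbours such as Cd22 and Dok3 in wild type, or Ms4a1 and Bank1 in either genotype, lay within the spread between libraries.

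All 9 members had a negative log2 fold change, with a median of -2.28, against a median of -0.035 over the 13347 genes tested. For 8 of 9, all wild-type libraries lay above all Nfkb2-/- libraries, which held for 9.9% of the genes tested. The edgeR test as designed called 3 of 9 lower (Cd79a, Mef2c and Dok3) and 0 higher, where 0.405% of all genes were called lower and 1.01% higher; at an unadjusted p under 0.05 these counts were 8 and 0, where 6.35% of all genes were lower and 7.25% higher. Nothing is read from these shares, since the members were chosen on this contrast. The number called was 6 with the replicate number as a block, 8 by DESeq2 and 1 by limma-voom (Cd79a), where 0.697%, 1.89% and 0.315% of all genes were called lower. With RLE or upper-quartile scaling or a filter of 1 CPM in 3 libraries it was 3 (0.412%, 0.427% and 0.406% of all genes), and with no count filter 4, Ebf1 being added (0.642%). It was 9 of 9 without wild-type replicate 1 (4.44% of all genes). That library was the lowest of the wild type in all 9, so larger differences without it were fixed in advance. It was 0 by edgeR without Nfkb2-/- replicate 1, 2 or 3 (0.0218%, 0.00727% and 0.00725% of all genes) and without wild-type replicate 2 or 3 (0.0655% and 0.0725%), with 8 of 9 lower at an unadjusted p under 0.05 in each of these fits (5.43%, 3.37%, 3.4%, 6.75% and 6.46% of all genes). All 9 kept a negative sign in every one of these fits.

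The libraries took nearly one order in these genes. Wild-type replicate 2 was highest and wild-type replicate 3 second in all 9 members. In 6 of 9 the full order was wild-type replicates 2, 3 and 1, then Nfkb2-/- replicates 3, 2 and 1, an order seen in 0.307% of all genes tested and noted after the values were seen. Pax5 and Ebf1 departed from it within the Nfkb2-/- group only, and Cd22 by the place of wild-type replicate 1. The summed level of the 9 genes was 29.5, 41.2 and 51.1 CPM in Nfkb2-/- replicates 1 to 3 and 72.9, 230.0 and 164.0 CPM in wild-type replicates 1 to 3. Across the 6 libraries log2 levels of the 28 pairs without Cd22 correlated at r from 0.924 to 0.994, and those of the 8 pairs with Cd22 at 0.439 to 0.713, a description over libraries that share genotype and depth. The Y-linked gene Ddx3y was ordered within the Nfkb2-/- group like the summed members. Its part in the members' levels was not tested.

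**Figure D2:**
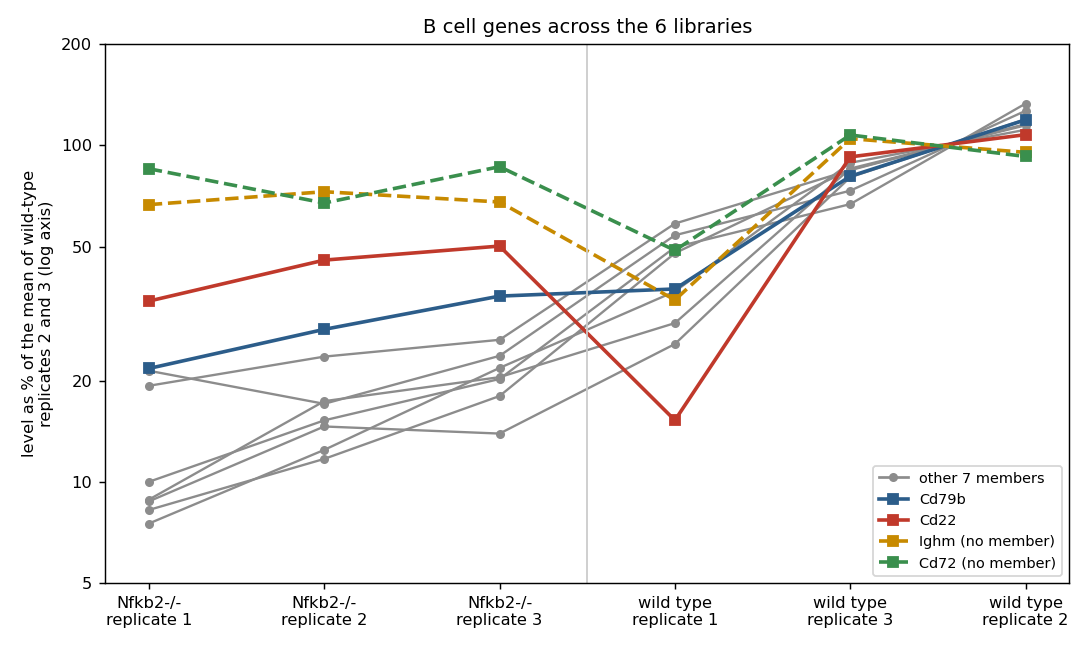
Level of each gene as a percentage of its mean in wild-type replicates 2 and 3 (vertical axis, log scale) in the 6 libraries, placed from left to right by the summed level of the members; lines only join the values of a gene. The members other than Cd22 lie at 7.53% to 35.7% in the Nfkb2-/- libraries and at 25.7% to 58.6% in wild-type replicate 1, while Cd22, Ighm and Cd72 are lowest in wild-type replicate 1.

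Wild-type replicate 1 shows how unevenly B cell genes behaved. It held 47.8% of the mean of wild-type replicates 2 and 3 for Cd79a and 58.6% for Dok3, but 15.3% for Cd22. The immunoglobulin heavy chain gene Ighm, named here after its values were seen, was at 494, 540 and 503 CPM in Nfkb2-/- and at 258, 707 and 776 CPM in wild type. It was thus higher in every Nfkb2-/- library than in wild-type replicate 1, whereas Cd79a was lower there. Per length, Ighm stood at 110, 84.7 and 51.4 times Cd79a in Nfkb2-/- and at 9.89, 11.3 and 16.8 times in wild type.

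Other genes of B cells were set beside the members in 5 lists with 77 genes in all, of which 73 were tested. In Nfkb2-/- 2 were called lower by edgeR, among them Ikzf3, and 1 higher, Cd81, against 0.405% and 1.01% of all genes. The median log2 fold change was -0.76, with 58 below 0. The genotypes did not overlap in 32 of the 73 with the wild type higher, and in 4 with Nfkb2-/- higher, against 9.9% and 10.7% of all genes tested. With the replicate block 15 were called lower (0.697% of all genes), by DESeq2 28 (1.89%) and without wild-type replicate 1 40 (4.44%). Without any one of the other libraries 0 or 1 was called lower, against at most 0.0725% of all genes, and 29 to 37 were lower at an unadjusted p under 0.05, against 3.37% to 6.75%. 

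Cd81, a tetraspanin gene of B and T cells, went the other way from the members. It rose from 45.2, 60.5 and 61.9 CPM in wild type to 103, 109 and 129 CPM in Nfkb2-/- (log2 fold change 1.02, SE 0.162). Ikzf3, the lymphocyte factor Aiolos, fell from 202, 227 and 182 to 108, 111 and 104 CPM (log2 fold change -0.92, SE 0.124).

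By list and by the same edgeR test, B cell receptor signalling genes had 1 lower and 1 higher of 27 tested. Their median log2 fold change was -0.29. B lineage transcription factors had 1 lower of 18, with a median of -0.84. Of all genes 0.405% were called lower and 1.01% higher. Of other surface and accessory genes 0 of 24 were called (median -0.78), with Fcmr, the IgM Fc receptor, at -2.31 and Fcer2a, the low-affinity IgE receptor CD23, at -3.11. Of immunoglobulin constant genes 0 of 5 were called (median -1.67), with Ighd at -1.67 and Iglc1 at -2.73. MHC class II presentation genes, active in B cells and other presenting cells, had 0 of 8 called (median -0.83), with their regulator Ciita at -1.82 and H2-DMb2 at -1.82. These class II genes summed to 586 to 834 CPM in Nfkb2-/- and to 327, 1135 and 847 CPM in wild type, again lowest in wild-type replicate 1. At an unadjusted p under 0.05, which 6.35% of all genes passed as lower and 7.25% as higher, 12 of the signalling genes were lower and 2 higher, and 12 of the transcription factors were lower. At the same p 11 of the surface genes were lower and 1 higher, 4 of the immunoglobulin genes were lower and 3 of the class II genes were lower. DESeq2 called 11, 7, 8, 3 and 2 lower (1.89% of all genes), in the order just given from signalling to MHC class II genes. In the same order it called 1, 0, 1, 0 and 0 higher (3.21%). By limma-voom 1 signalling gene was lower and 1 higher, and 1 transcription factor was lower (0.315% and 1.08% of all genes). Of the other 3 lists 0 genes were called. The reference panel taken up below, part of the 77 genes, had 1 lower of 11 tested by edgeR (median -2.34). Of the 11, 9 were lower at an unadjusted p under 0.05, 9 by DESeq2 and 1 by limma-voom, with 0 higher. In 9 all wild-type libraries lay above all Nfkb2-/- libraries, against 9.9% of all genes.

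**Figure D3:**
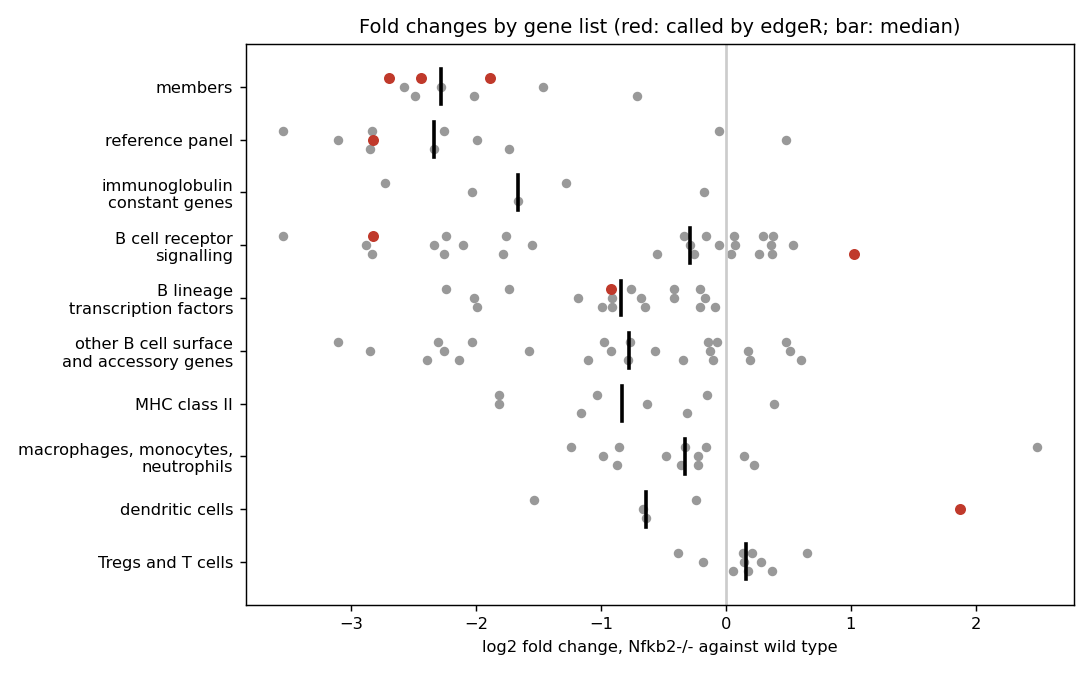
Log2 fold change of Nfkb2-/- against wild type (horizontal axis) for each tested gene, one row per list, with called genes in red and the median as a black bar; vertical spread within a row only separates points. The median is -2.28 for the members, -2.34 for the reference panel and -0.29 for B cell receptor signalling genes, whose points spread to both sides of 0.

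Markers of other cells were read in the same libraries. Macrophage, monocyte and neutrophil markers summed to 71.7, 70.0 and 107 CPM in Nfkb2-/- and 44.1, 171 and 61.3 CPM in wild type. The genotypes overlapped, and 0 of 13 markers were called by edgeR or limma-voom. Of the 13, 1 was higher at an unadjusted p under 0.05 (7.25% of all genes) and 1 by DESeq2 (3.21%). Dendritic cell markers summed to 91.2, 118 and 134 CPM in Nfkb2-/- and 46.3, 76.8 and 30.2 CPM in wild type. Most of this came from Zbtb46, except in wild-type replicate 2. Zbtb46 was the 1 of 5 called (higher, log2 fold change 1.87, SE 0.317), against 1.01% of all genes. The plasmacytoid dendritic cell marker Siglech was at 20.8 CPM in wild-type replicate 2 and at 0 to 3.75 CPM elsewhere, and the macrophage gene Mpeg1 at 40.0 CPM there and 2.15 to 11.8 CPM elsewhere. That library was the highest in all 9 members as well. However, wild-type replicate 3, the next highest in all 9, held only 0.840 CPM of Siglech and 3.02 CPM of Mpeg1. Nfkb2-/- replicates 2 and 3 held more, at 3.59 and 3.75 CPM of Siglech and 9.43 and 11.8 CPM of Mpeg1. When the myeloid and dendritic markers served as covariate, an alternative added later, log2 fold changes of the members ran from -3.11 to -1.09. In that fit 4 were called lower (Cd79a, Ebf1, Mef2c and Dok3), against 0.165% of all genes. The covariate includes Zbtb46, at 86.8, 102 and 119 CPM in Nfkb2-/- and 42.1, 24.9 and 16.6 CPM in wild type. It thus follows genotype in part, and the fit cannot show what myeloid content alone does to the members.

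Further marker lists were tested with the same edgeR fit. Plasma cell genes had 0 of 5 called, with Jchain, the joining chain of secreted IgM, at -2.07 and Sdc1 at -0.92. Natural killer cell genes had 1 higher of 3, against 1.01% of all genes. It was Eomes, a factor that T cells also express (1.60, SE 0.274). CD8 T cell genes had 0 of 2 called (Cd8b1 -0.48, Cd8a -0.95). Gamma-delta T cell genes had 0 of 4 called (Blk, a B cell kinase as well, -1.79, and Tcrg-C1 0.33), and red blood cell genes 0 of 5 (Hbb-bs -0.53 and Hba-a1 -0.47). Treg and T cell genes had 0 of 10 called, with Ikzf2 at 0.65 and Il2ra at -0.38. Of these lists with no call, plasma cell genes had 2 lower and 1 higher at an unadjusted p under 0.05. At the same p CD8 and gamma-delta T cell genes had 1 lower each and red blood cell genes 0. Treg and T cell genes had 1 lower and 1 higher, and of all genes 6.35% were lower and 7.25% higher. DESeq2 called 1 Treg or T cell gene higher, against 3.21% of all genes, and 0 in the others, and limma-voom 0 in all. In bulk RNA, fewer B cells among the sorted cells and less B cell RNA per cell cannot be told apart.

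The question whether genotype or B cell content accompanies the members' levels was put to a reference panel of 12 B cell genes that are no members, without immunoglobulins. The panel summed to 51.8, 58.1 and 71.3 CPM in Nfkb2-/- and 79.4, 241 and 155 CPM in wild type, so it was lower in every Nfkb2-/- library as well. As a percentage of the panel, Cd79a was at 6.71%, 8.48% and 10.6% in Nfkb2-/- and 25.3%, 20.1% and 23.0% in wild type, without overlap. Cd79b was at 13.4%, 15.6% and 16.0% against 15.1%, 15.8% and 16.7%, overlapping between the genotypes. Cd22 was at 16.9%, 20.0% and 17.9% against 4.89%, 11.4% and 15.2%, higher in each Nfkb2-/- library. 

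On the log2 scale, the level relative to the panel was lower in Nfkb2-/- by 1.43 for Cd79a, with differences of -1.23 for Ms4a1, -1.13 for Mef2c, -1.11 for Pax5, -0.91 for Bank1, -0.69 for Ebf1 and -0.59 for Dok3. The spread between libraries of a genotype (pooled SD) was 0.231 to 0.400 for these 7. For Cd79b the difference was -0.08 (pooled SD 0.110) and for Cd22 0.95 (pooled SD 0.606). The median over the 9 was -0.91. This value turned on the panel, in which Cd72, at 21.5 to 27.5 CPM in Nfkb2-/- and 15.5 to 34.2 CPM in wild type, and Fcrl1, at 10.3 to 13.0 and 2.86 to 12.7 CPM, were not lower with the rest. Without Cd72 and Fcrl1, a choice made after seeing their values that by itself draws the panel towards genes lower in Nfkb2-/-, the median was 0.16, and with the geometric mean of the whole panel it was -0.25. Against immunoglobulin constant genes the median was -1.89 and against MHC class II genes -2.19.

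In an edgeR fit with the log2 panel level beside genotype, differences shrank for 8 of the 9 members. The log2 fold change was -1.53 (SE 0.275) for Cd79a, -1.21 (SE 0.347) for Mef2c, -1.06 (SE 0.328) for Dok3 and -1.02 (SE 0.422) for Ebf1. Ms4a1, Pax5 and Bank1 were at -0.98, -0.59 and -0.49, and Cd79b at 0.026 (SE 0.243). Cd22 changed sign, at 1.81 (SE 0.487). That fit called Cd79a and Mef2c lower and Cd22 higher, where 9.57% of all genes were called lower and 7.82% higher. With Cd72 and Fcrl1 left out of the covariate 0 of the 9 were called by edgeR in either direction (1 lower and 1 higher at an unadjusted p under 0.05, against 15.1% and 12.2% of all genes), where 2.71% and 2.18% of all genes were called, and values ran from -0.81 for Cd79a to 2.34 for Cd22. The panel level and genotype went together in these 6 libraries, and their parts in the members' levels cannot be told apart.

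**Figure D4:**
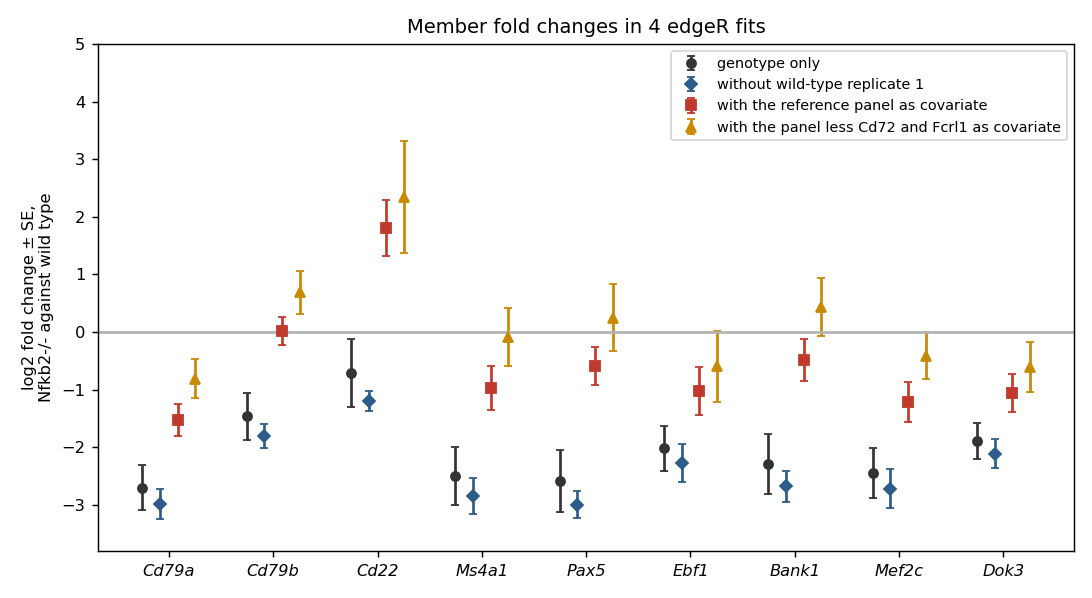
Log2 fold change of Nfkb2-/- against wild type with its SE (vertical axis) for each member in 4 edgeR fits: genotype only, without wild-type replicate 1, and with either form of the reference panel as covariate. Wild-type replicate 1 is the lowest wild-type library in every member, so that leaving it out lowers every value was fixed in advance. With the panel as covariate Cd22 stands at 1.81 while Cd79a remains at -1.53.

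Genes whose level followed a member most closely across the 6 libraries were sought among the 9739 genes whose mean reached 5 CPM, by Pearson's r of log2 CPM, as a description of likeness. For Ms4a1 the closest was Fcer2a (likeness 0.998), and for Mef2c they were Gga2, an adaptor of Golgi transport, Fcrla, a B cell Fc receptor-like gene, and Scd1, a fatty acid desaturase (0.998, 0.996 and 0.995). Cd79a was closest to Gfi1, a transcriptional repressor, and Cd24a, the heat stable antigen (0.996 and 0.995), and Cd79b to Plac8 (0.996), which was also among the 3 closest to Pax5 and Bank1. Pax5 further had Ikzf1, which encodes Ikaros, and Pou2af1, the B cell coactivator OBF1, at 0.981 and 0.980. The genes closest to Dok3 were Sgsm3, Grap2, an adaptor of T cell receptor signalling, and Camkk2 (0.998, 0.998 and 0.997). Those closest to Cd22 were Ctsz, which encodes cathepsin Z, Tfb2m and D030056L22Rik (0.993, 0.993 and 0.992), none of which was among the 3 closest to another member. Grap2 ran from 382 to 422 CPM in Nfkb2-/- and 573 to 697 CPM in wild type, and Gfi1 from 21.7 to 27.2 and 38.0 to 45.6 CPM, so such likeness also reached genes that T cells express. It does not measure size, as Sgsm3 ran from 6.70 to 8.31 CPM and Dok3 from 1.90 to 11.4 CPM. How often the best of 9739 genes reach such values over 6 libraries was not tested.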

How the data were processed

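RNA of 6 libraries of sorted mouse splenic Tregs was used, 3 per genotype. The deposited values are raw whole-number counts of reads per gene; tools named in the submitters' processing notes are HISAT2, HTSeq, FastQC and DESeq2, with the build GRCm38, and versions, annotation and counting mode are not given in the sources used here. Libraries were unstranded, per the labels' protocols. Of 55573 gene IDs, 55480 matched GENCODE M21 (GRCm38), which gave symbols, positions and exon lengths.

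Counts were tested with edgeR 4.0.16 (R 4.3.3): filterByExpr, TMM, a robust quasi-likelihood fit of genotype alone, Benjamini-Hochberg adjustment over 13347 genes and a threshold of 0.05; "called" means past it. SEs were derived from the quasi-likelihood F. The code was tested on simulated counts. Labels name the libraries as biological repeats; otherwise p-values measure only the spread between samples. Named genes are the members, from each list the called genes with the smallest p (up to 4) or otherwise 2, and the 3 genes most like each member, and 1 gene so named is not reported here; Ighm, Cd72, Fcrl1, Siglech, Mpeg1, Xist and Ddx3y were named after their values were seen. The members and lists were chosen with earlier results of these data known. Libraries 1, 2 and 3 of the genotypes shared deviations from their group means (r = 0.364, 0.267 and 0.111 across genes), so by the rule of every r above 0.1 numbers were taken to pair them, although unmatched pairs ran from -0.428 to 0.251, the latter between Nfkb2-/- replicate 3 and wild-type replicate 2, and the block is an alternative. Other alternatives were RLE and upper-quartile scaling, filters, DESeq2 1.42.0, limma-voom (limma 3.58.1), panel covariates and leaving out each library. Promoters are from RefSeq (GRCm38.p6). Figures used matplotlib 3.10.9.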

Additional observations from a re-analysis of the deposited data

How the results depend on the processing

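How many genes were called turned on single libraries and on the tool, whereas the direction of the members did so only with a panel covariate. The design called 54 genes lower (0.405%) and 135 higher (1.01%) over all genes. Of 9 members it called 3 lower and 0 higher, and of 73 other B cell genes 2 lower and 1 higher. Leaving out one library in turn gave 1 to 606 genes lower (0.00725% to 4.44%) and 6 to 628 higher. It gave 0 to 9 of 9 members lower, and of 73 to 75 other B cell genes 0 to 40 lower and 0 to 2 higher. The highest values came without wild-type replicate 1. With no count filter 174 genes were lower (0.642%) and 292 higher, with 20 of 77 other B cell genes lower and 2 higher. DESeq2 called 252 lower (1.89%) and 428 higher (3.21%), 8 of 9 members lower, and of 73 other B cell genes 28 lower and 2 higher. By limma-voom 1 of 9 members was lower (0.315% of all genes). With the replicate block, by the pairing of the numbers, 93 genes (0.697%), 6 of 9 members and 15 of 73 other B cell genes were called lower. The block changed no sign among the members. With the panel as covariate 1277 genes were lower (9.57%) and 1044 higher (7.82%), and of 9 members 2 were lower and 1 higher. Of 73 other B cell genes 7 were lower, near the share of all genes, and 11 higher. The member median moved from -2.28 to -0.98, Cd79b to 0.026 and Cd22 to 1.81. With the panel less Cd72 and Fcrl1, added after seeing the data, 362 genes were lower (2.71%) and 291 higher (2.18%). Of 9 members 0 were lower, and of 73 other B cell genes 3 were lower and 2 higher. The member median was -0.085, and Cd79b at 0.69, Cd22 at 2.34, Pax5 at 0.25 and Bank1 at 0.43 changed sign. With myeloid and dendritic markers, also added and in part following genotype through Zbtb46, 22 genes were lower (0.165%) and 29 higher. Of 73 other B cell genes 8 were lower and 0 higher. The median level relative to the panel, -0.91, ran from -1.05 to -0.80 without each library, and was -1.89, -2.19, -0.25 and 0.16 with immunoglobulin constant genes, MHC class II genes, the geometric mean and the panel less Cd72 and Fcrl1 as reference. RLE and upper-quartile scaling and a filter of 1 CPM in 3 libraries left the same 3 members called. The cause of these shifts was not tested. Depth limits the members most in Nfkb2-/- libraries, where Ebf1 rests on 15 to 18 counts.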
